A study of Mus musculus with 6 samples.

Results

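Adrenomedullin is a secreted peptide that acts on endothelial cells, and the genes described here encode the peptide (Adm), its receptor (Calcrl), the accessory proteins that set what that receptor binds (Ramp1, Ramp2 and Ramp3) and a scavenger of the peptide (Ackr3). They were taken by name, as every probe set whose annotation gives one of these 6 symbols and no other, which gave 11 of the 45037 probe sets tested and 6 of the 18193 genes represented. A further 2 probe sets are annotated to Ramp2 together with a second gene and were left out by that rule. The samples were lining cells of lymphatic vessels (lymphatic endothelial cells, LECs), cut by laser capture from tissue sections after a short LYVE-1 stain and hybridised to mouse Affymetrix arrays, 1 per sample. One group held 3 samples from balb-c/nude mice, which lack a thymus and so most T cells, taken from mammary skin that was healthy. The other held 3 samples from tumours of the human line MDA-MB-435, long used as a breast cancer line and later traced to a melanoma. Its cells had been injected under the skin, and the tumours were taken out 8 weeks later. The tumour cells are human, while the arrays carry mouse probes. The labels name no strain for the mice that carried the tumours and no age or sex for either group. They call the samples biological replicates without naming an animal behind each, so the p-values measure the spread between these samples only.

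Adrenomedullin signals through Calcrl, a G protein-coupled receptor that reaches the cell surface only with a partner of the RAMP family. With Ramp2 or Ramp3 the pair is a receptor for adrenomedullin, and with Ramp1 it is the receptor for calcitonin gene-related peptide (CGRP). Binding raises cyclic AMP through the stimulatory G protein and tightens endothelial junctions. Mouse embryos without Adm, Calcrl or Ramp2 develop oedema with underdeveloped lymphatic vessels. Ackr3, also known as Cxcr7, is an atypical receptor that takes up the chemokine CXCL12 and also adrenomedullin without G protein signalling, and embryos without it have enlarged lymphatics. Adm is also a well-known target of the hypoxia-inducible factors.

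In these samples no difference between the groups was established for any of the 6 genes, with 3 arrays per group. Only 1 Ramp1 probe set had groups that did not overlap, lower in tumours, as 4.91% of all probe sets were. The bright probe set of Adm and that of Ackr3 had the larger mean signals in tumour LECs, by 1.24 and 1.12 on the log2 scale, and the readable probe sets of Ramp1 had the smaller ones. Those of Ramp2 and Calcrl differed by under 0.3. The other probe set of Adm differed by -0.40, and the difference of the bright one was 0.26 without healthy-skin replicate 1. Of the 11 probe sets, 0 passed a limma adjusted p of 0.05 and 0 had an unadjusted p under 0.05, against 0.00444% and 6.36% of all probe sets. Their limma adjusted p lay between 0.861 and 1.00.

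Signals are given as log2 intensities and read against a background level for each array, taken as the 95th percentile over 27 probe sets for bacterial control RNA, which lay between 2.96 and 3.91. Between 39.6% and 56.0% of probe sets on an array were above it. The number of arrays limits the precision. The difference between 3′ and 5′ Gapdh control probe sets, a sign of RNA quality, ran from 2.77 to 3.72 in healthy skin and from 2.15 to 4.10 in tumours. For beta-actin it was much smaller, from -0.31 to 0.38 and from -0.63 to 0.60. LEC markers were present in both groups: the mean over 13 of them ran from 5.77 to 6.80 in healthy skin and from 7.23 to 7.59 in tumours. Lyve1, whose protein was the stain, was at 3.21 and so below background in healthy-skin replicate 1. Markers of other cells and of endothelium in general differed in signal as well. Keratinocyte markers averaged 7.15 to 7.89 in healthy skin and 4.11 to 5.89 in tumours over 14 genes, and pan-endothelial markers 4.36 to 4.61 and 5.56 to 5.93 over 16. In such captures, fewer cells of a type and less RNA per cell cannot be told apart.

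**Figure D1:**
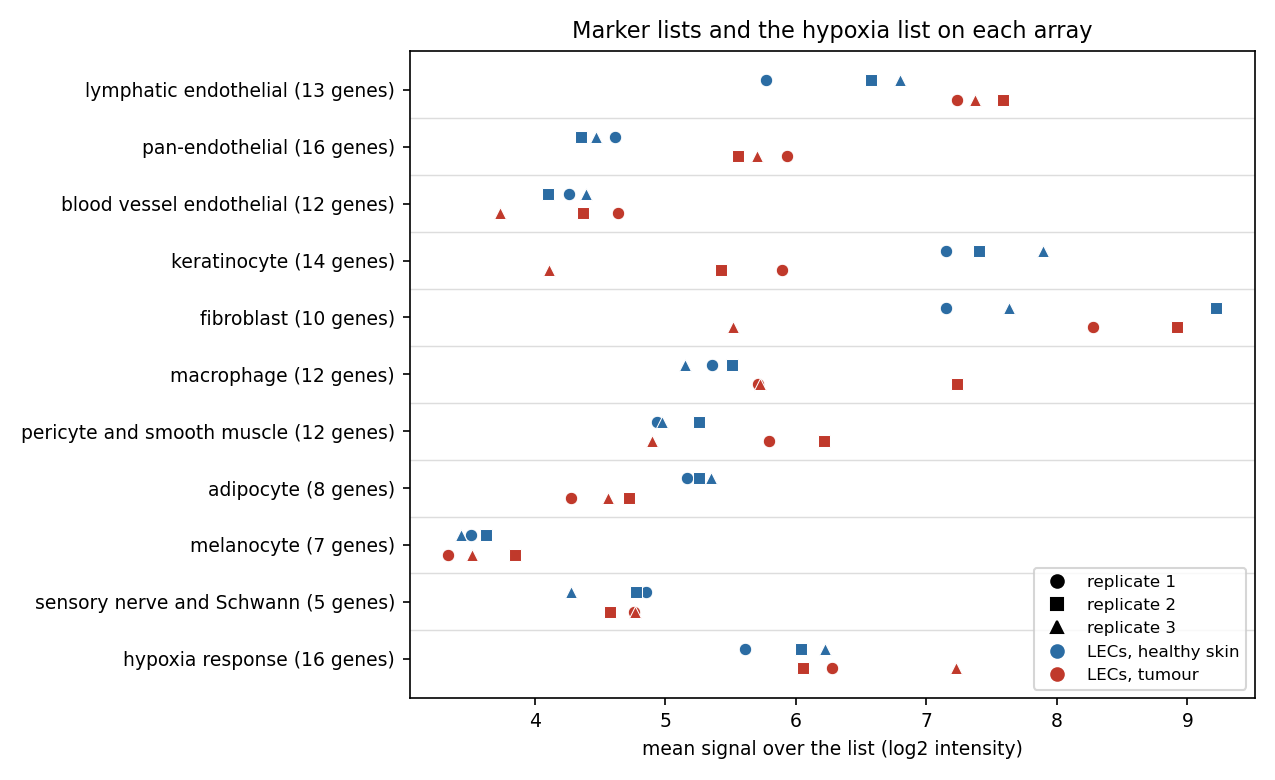
Mean signal (log2 intensity, horizontal axis) over each marker list and over the hypoxia list on each array, with 1 point per array, blue for healthy skin and red for tumour, and the symbol giving the replicate. The LEC and pan-endothelial lists sit higher and the keratinocyte list lower in all 3 tumour samples, and tumour replicate 2 stands apart in macrophage markers at 7.23.

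Macrophage markers averaged 5.15 to 5.51 over 12 genes in healthy skin, and 5.71, 7.23 and 5.72 in tumour replicates 1, 2 and 3. Of these 12 genes, 11 had the larger mean in tumours and Itgam was below background on every array. Pericyte and smooth muscle markers, which matter here because mural cells also carry RAMP receptors, averaged 4.93 to 5.26 over 12 genes in healthy skin and 4.89 to 6.21 in tumours. Blood vessel markers averaged 4.10 to 4.40 and 3.74 to 4.64 over 12 genes, fibroblast markers 7.15 to 9.22 and 5.52 to 8.92 over 10, and adipocyte markers 5.17 to 5.35 and 4.28 to 4.72 over 8, with Adipoq and Cidec below background throughout. Melanocyte markers averaged 3.43 to 3.62 and 3.34 to 3.85 over 7 genes, with Tyr and Mlana below background on every array. Nerve and Schwann cell markers averaged 4.28 to 4.86 and 4.57 to 4.76 over 5 genes. The part of other cell types in the values below was not tested.

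Adm, the gene of the peptide, was measured by 2 probe sets that did not run together. The first, 1447839_x_at, had 8.64, 11.32 and 11.81 in healthy-skin replicates 1, 2 and 3, and 11.16, 11.93 and 12.40 in tumour replicates 1, 2 and 3. All 6 values were far above background, healthy-skin replicate 1 was lower than every other array, and the remaining values of the groups overlapped. The means were 10.59 ± 1.71 and 11.83 ± 0.62 (SD, n = 3 arrays per group), a log2 difference of 1.24 with a 95% interval from -0.76 to 3.24 (limma adjusted p = 0.870). That difference rested on healthy-skin replicate 1: without it, it was 0.26. This array also had the lowest mean of LEC markers, at 5.77, and the part of that in the Adm value was not tested. An SD as large as that of the healthy-skin samples was seen in 3.53% of all probe sets. The suffix x_at marks a probe set in which some probes also match other sequences, and the annotation gives no source transcript for it.

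The second Adm probe set, 1416077_at, had 4.10, 3.61 and 5.29 in healthy skin and 3.99, 3.42 and 4.38 in tumours. It was above background on all 6 arrays, by between 0.0036 and 2.33, and its groups overlapped. Its log2 difference was -0.40, opposite in sign to that of the first (95% interval -1.59 to 0.78, limma adjusted p = 0.914). Across the 6 arrays the 2 probe sets had a Pearson correlation of 0.11, a description over arrays that share their normalization. The direction for Adm therefore depends on the probe set read.

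**Figure D2:**
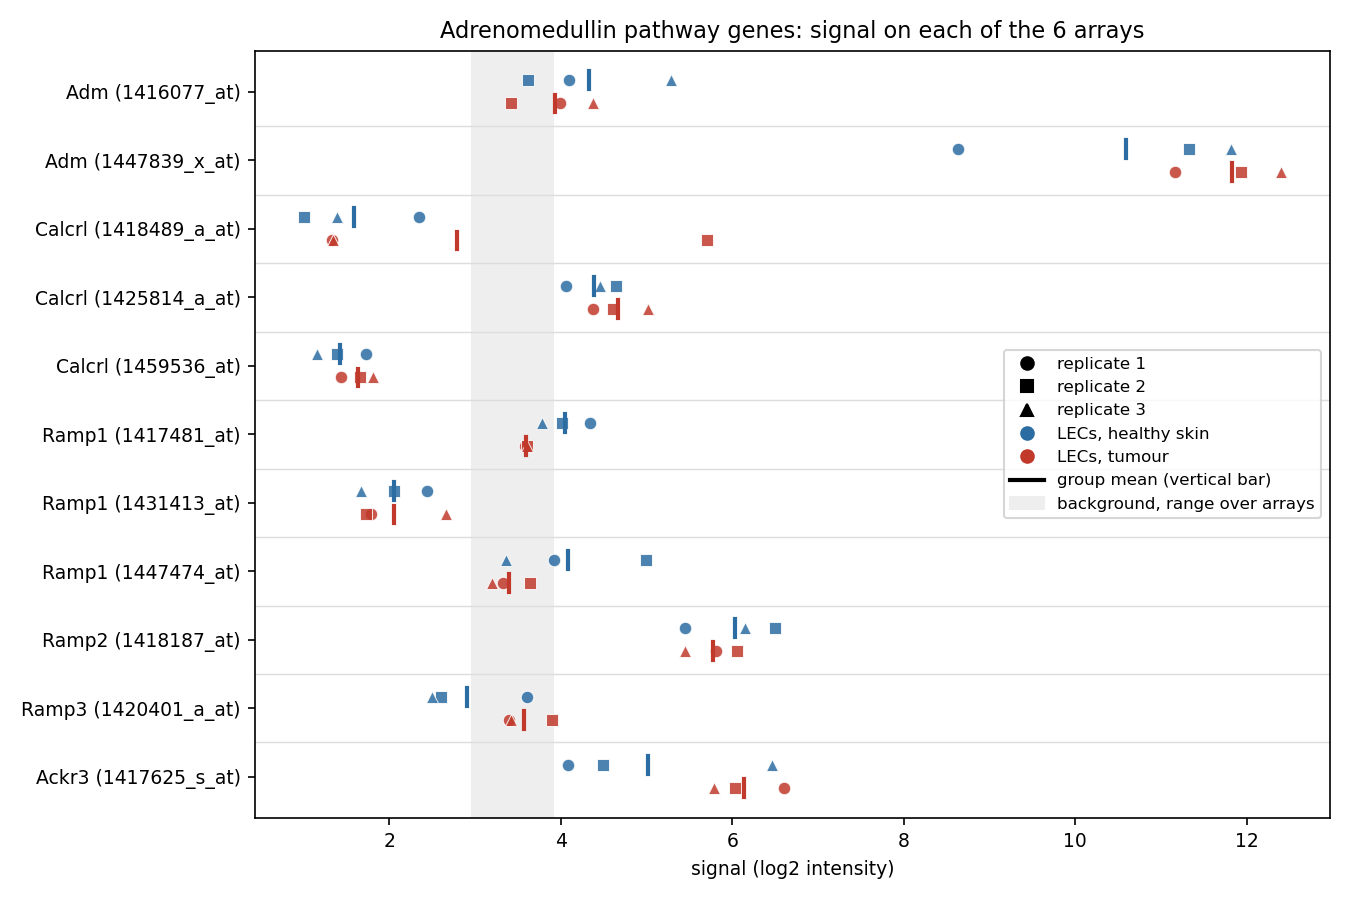
Signal (log2 intensity, horizontal axis) of all 11 probe sets on each array, with 1 point per array, blue for healthy skin, red for tumour, the symbol for the replicate, a vertical bar for each group mean and a grey band for the range of background over the arrays. Levels are to be compared within a line only. Tumour replicate 2 is alone at 5.71 in Calcrl probe set 1418489_a_at, and only Ramp1 probe set 1417481_at has groups that do not overlap.

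Calcrl, the receptor, was above background on all 6 arrays in 1 of its 3 probe sets. That probe set, 1425814_a_at, had 4.06, 4.65 and 4.45 in healthy skin and 4.37, 4.61 and 5.02 in tumours. The groups overlapped over a narrow range, and tumour replicate 3 was the highest. The means were 4.39 ± 0.30 and 4.67 ± 0.33 (SD, n = 3), a difference of 0.28 with a 95% interval from -0.46 to 1.02 (limma adjusted p = 0.908). It ranged from 0.10 without tumour replicate 3 to 0.43 without tumour replicate 1, and was 0.056 with array weights.

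The second probe set of Calcrl, 1418489_a_at, had 2.35, 1.01 and 1.39 in healthy skin, and 1.33, 5.71 and 1.35 in tumours. It was below background on every array but tumour replicate 2, where it stood 2.29 above. The mean difference of 1.21 came from that array alone (95% interval -1.60 to 4.02, limma adjusted p = 0.895), and without it the difference was -0.24. An SD as large as that of the tumour samples, 2.52, was found in 0.466% of all probe sets. Tumour replicate 2 was also the array with the highest macrophage markers, at 7.23 on average, and the highest LEC markers, at 7.59. The part of either in this value was not tested. The better measured probe set of Calcrl had 4.61 on this array, between the other 2 tumour samples. The third probe set, 1459536_at, lay between 1.16 and 1.81 and was below background on all 6 arrays.

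Ramp2, the partner that makes the main adrenomedullin receptor of endothelium, had 5.45, 6.50 and 6.15 in healthy skin and 5.81, 6.06 and 5.44 in tumours by its 1 probe set, 1418187_at. It stood between 1.53 and 3.22 above background on each array, and the groups overlapped throughout. The means were 6.03 ± 0.54 and 5.77 ± 0.31 (SD, n = 3), a difference of -0.26 (95% interval -1.13 to 0.61, limma adjusted p = 0.926). With 1 array left out, it ranged from -0.56 without healthy-skin replicate 1 to -0.028 without healthy-skin replicate 2.

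Ramp3, the other partner for adrenomedullin, was close to background. Its probe set 1420401_a_at had 3.61, 2.60 and 2.50 in healthy skin, all below background, and 3.40, 3.90 and 3.42 in tumours, where only replicate 2 was above background. The measured means were 2.90 ± 0.61 and 3.57 ± 0.29 (SD, n = 3), a log2 difference of 0.67 (95% interval -0.24 to 1.58, limma adjusted p = 0.861). It was 1.02 without healthy-skin replicate 1, the highest of its group (limma adjusted p = 0.501), and 0.23 with log2(value + 16). With 5 of 6 values below background, no fold is given. Tumour replicate 2, again, was the array with the highest macrophage, pericyte and LEC markers, and their part in this value was not tested.

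Ramp1, the partner for CGRP, gave the lower means in tumours. Probe set 1417481_at had 4.34, 4.02 and 3.78 in healthy skin and 3.58, 3.61 and 3.60 in tumours, so that all tumour values lay below all healthy-skin values. Of the 11 probe sets, this was the only one whose groups did not overlap, with 1 lower and 0 higher in tumours. Of all probe sets, 4.91% were lower and 6.22% higher in this way, so that 1 of 11 is near the background. The difference was -0.45 (95% interval -1.10 to 0.20, limma adjusted p = 0.866). Healthy-skin values stood 0.53 to 0.82 above background, while those of tumour replicates 1, 2 and 3 stood at 0.13, 0.19 and -0.31 from it. An SD as small as that of the tumour samples, 0.02, was found in 0.282% of probe sets.

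A second Ramp1 probe set, 1447474_at, had 3.92, 4.998 and 3.36 in healthy skin and 3.33, 3.64 and 3.20 in tumours. Its difference was also negative, at -0.70 (95% interval -1.77 to 0.38, limma adjusted p = 0.868), but tumour replicate 2 lay above healthy-skin replicate 3. It was above background on all healthy-skin arrays and on 1 of 3 tumour arrays. Without healthy-skin replicate 2 the difference was -0.24, without healthy-skin replicate 3 -1.06, and with array weights -1.12 (limma adjusted p = 0.388). The third, 1431413_at, lay between 1.67 and 2.66, below background on all arrays, with a difference of 0.0041.

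The balance between the RAMPs was read as the log2 ratio of 2 of them on the same array, compared between the groups. Ramp1 minus Ramp3 was 0.74, 1.42 and 1.28 in healthy skin and 0.18, -0.29 and 0.19 in tumours, with no overlap. The difference was -1.12, and its exact two-sided permutation p of 0.1 is the smallest that 3 against 3 arrays can give (0.3 adjusted over the 3 pairs). Ramp3 was below background on 5 of the 6 arrays, so the ratio there is set against a signal within background. Ramp1 stood at 0.13, 0.19 and -0.31 from background in tumour replicates 1, 2 and 3, so both terms were near background in tumours. How often other pairs of genes separate the groups in this way was not computed. Ramp3 minus Ramp2 differed by 0.93 (exact permutation p = 0.4, adjusted 0.6) and Ramp1 minus Ramp2 by -0.19 (exact permutation p = 0.9, adjusted 0.9). The groups overlapped in both of these ratios.

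Ackr3, the scavenger, had 4.09, 4.50 and 6.47 in healthy skin and 6.60, 6.04 and 5.78 in tumours by its 1 probe set, 1417625_s_at. Every value was above background. The tumour samples lay close together, and healthy-skin replicate 3 was within their range while the other 2 healthy-skin samples were lower. The means were 5.02 ± 1.27 and 6.14 ± 0.42 (SD, n = 3), a difference of 1.12 (95% interval -0.40 to 2.64, limma adjusted p = 0.861). An unadjusted p as small as that of Ackr3, 0.124, was found in 14.4% of all probe sets. Without healthy-skin replicate 3 the difference was 1.85 (limma adjusted p = 0.532), and without healthy-skin replicate 1 it was 0.66.

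**Figure D3:**
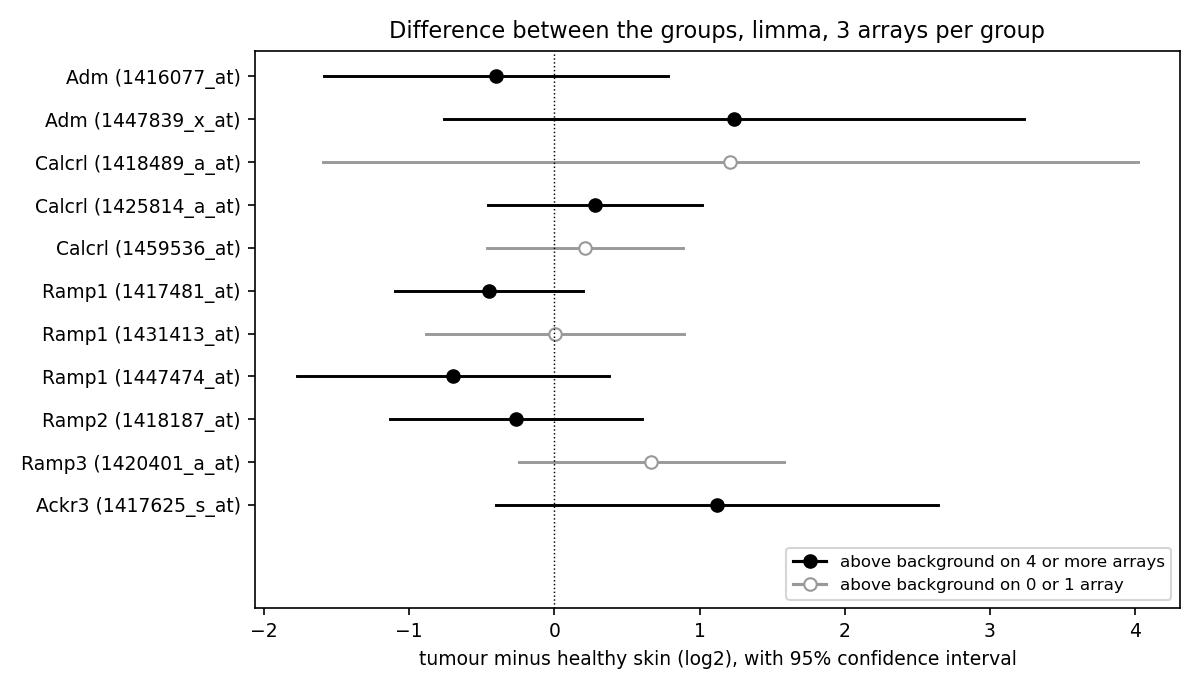
Log2 difference between tumour and healthy-skin samples (horizontal axis) for each of the 11 probe sets, with the 95% confidence interval from limma over 3 arrays per group; filled points were above background on 4 or more arrays and open points on 0 or 1. All 11 intervals include 0.

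Over the members as a whole, 7 of 11 probe sets had positive and 4 negative differences, with a median of 0.21. Among all probe sets 55.5% were positive and the median was 0.06. Of the 11, 8 differed by less than 1 on the log2 scale. Above background on all 6 arrays were 5 of them: both Adm probe sets and 1 each of Calcrl, Ramp2 and Ackr3.

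Because endothelial markers were higher in the tumour captures, each gene, by its brightest probe set, was also read against the mean of the pan-endothelial list on the same array. Ramp2 minus that mean was 0.83, 2.15 and 1.68 in healthy skin and -0.12, 0.50 and -0.26 in tumours, a difference of -1.51. Calcrl differed by -0.97 and Ramp1 by -1.70 in the same measure. For these 3 genes the groups did not overlap, and the exact two-sided permutation p was 0.1 for each, the smallest that 3 against 3 arrays can give (0.2 adjusted over 6 genes). Of 18177 genes outside the list, however, 66.7% were lower in tumours without overlap in this measure, so that 3 of 6 does not set these genes apart. With the mean of all probe sets of each gene, Calcrl differed by -0.64 and its groups overlapped (exact permutation p = 0.4). That mean takes in 1459536_at, below background on every array, and 1418489_a_at, above background only in tumour replicate 2, at 5.71.

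Adm, Ramp3 and Ackr3 overlapped between the groups when read in this way. Adm differed by -0.01 (exact permutation p = 1.00), Ackr3 by -0.13 (exact permutation p = 0.9) and Ramp3 by -0.58 (exact permutation p = 0.3). For Adm the mean of all its probe sets gave -0.79 instead (exact permutation p = 0.3), so its value depends on the probe sets read. Against the mean of the LEC markers, Calcrl, Ramp1 and Ramp2 were again lower without overlap, by -0.74, -1.47 and -1.28 (exact permutation p = 0.1, 0.2 adjusted, for each), where 35.6% of genes were. For Calcrl the gap between the groups was narrow, with -2.35 in healthy-skin replicate 3 and -2.36 in tumour replicate 3. With the mean of all probe sets, the dim ones included, Calcrl differed by -0.22 and the groups overlapped (exact permutation p = 0.5). Adm, Ramp3 and Ackr3 differed by 0.22, -0.35 and 0.10 against that mean. These 3 small differences, and those of Adm and Ackr3 against the pan-endothelial mean, changed sign when single arrays were left out.

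**Figure D4:**
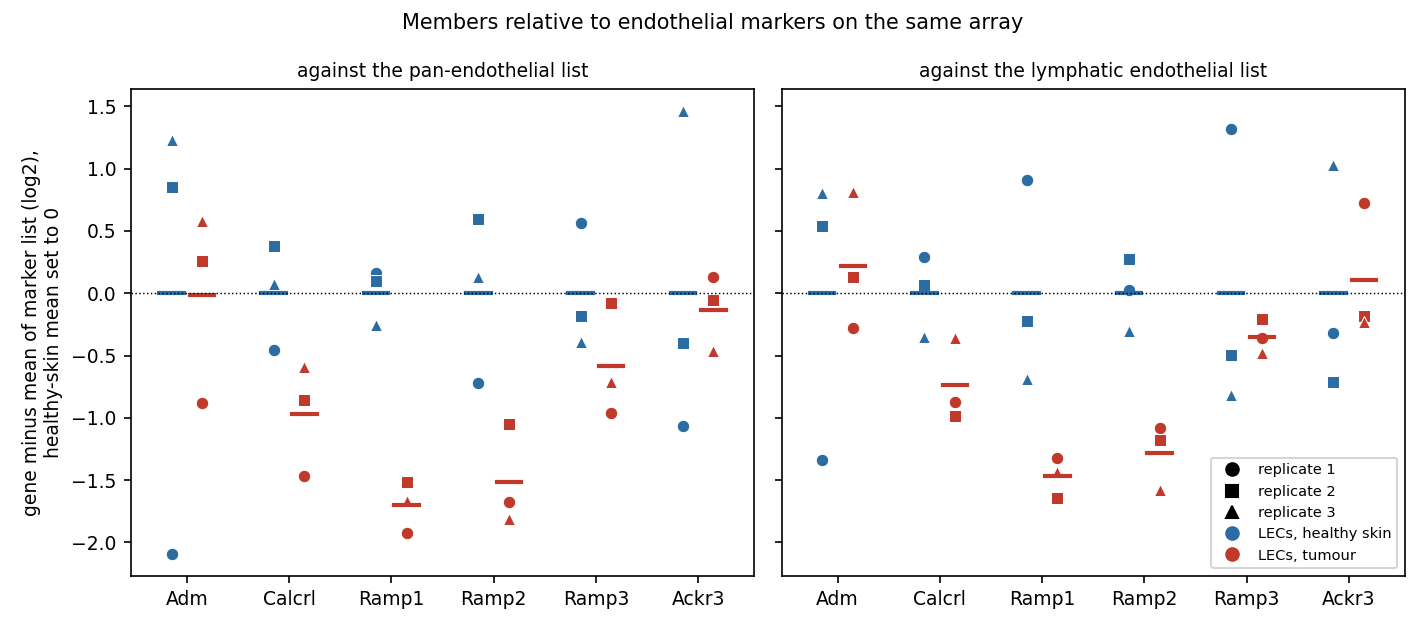
Log2 signal of each gene minus the mean of the pan-endothelial list (left) or the LEC list (right) on the same array (vertical axis, healthy-skin mean set to 0), with 1 point per array, blue for healthy skin and red for tumour, and a horizontal bar for each group mean. Tumour points of Calcrl, Ramp1 and Ramp2 lie below all their healthy-skin points, as 66.7% of genes did on the left scale and 35.6% on the right.

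Other ligands and the enzymes that make or clear the peptide gave 0 of 8 genes past a limma adjusted p of 0.05, with 2 higher and 6 lower means and a median difference of -0.27, against 0.08 over all genes. Of all 18193 genes, 57.3% had higher means in tumours and 7.50% had an unadjusted p under 0.05, which are the shares to set beside the counts of this and the next 4 lists. At an unadjusted p under 0.05 there was 1, Ide, a peptide-degrading enzyme best known for insulin, which had 5.70, 7.05 and 7.31 in healthy skin and 4.64, 5.32 and 5.30 in tumours (difference -1.60, limma adjusted p = 0.647). Pam, the enzyme that amidates adrenomedullin into its active form, differed by -0.83 (limma adjusted p = 0.872). Mme, the peptidase neprilysin, had its only value above background in tumour replicate 2, at 5.11. Adm2, the related peptide intermedin, was above background on 2 healthy-skin arrays and differed by -0.33. Cxcl12, the chemokine that Ackr3 takes up, had 5.40, 7.09 and 2.59 in the 3 tumour samples and 5.53, 4.55 and 6.37 in healthy skin.

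Related receptors, including other partners of the RAMPs, gave 0 of 12 past the adjusted threshold, with 8 higher and 4 lower means and a median of 0.10. Crcp, which encodes a component of the CGRP receptor complex and also a subunit of RNA polymerase III, had 4.33, 4.08 and 4.87 in healthy skin and 3.26, 1.61 and 3.06 in tumours. All 3 tumour values were below background, and the difference was -1.78 (limma adjusted p = 0.602). The secretin receptor gene Sctr differed by 0.69, the VIP receptor gene Vipr2 by 0.38 and the parathyroid hormone receptor gene Pth1r by -0.41, and Vipr2 was below background on every array.

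Cyclic AMP and arrestin genes, through which the receptor acts, had 15 higher and 4 lower means among 19 genes, a median of 0.29 and 0 past the adjusted threshold. At an unadjusted p under 0.05 there were 2 higher and 2 lower, against 7.50% of all genes in either direction. Gnas, the stimulatory G protein subunit, had 7.51, 8.08 and 7.69 in healthy skin and 9.38, 9.19 and 9.74 in tumours (difference 1.67, limma adjusted p = 0.329). Arrb1, an arrestin that binds activated receptors, differed by 1.31 (limma adjusted p = 0.638), and in both genes the groups did not overlap. Pde4b, a phosphodiesterase that breaks down cyclic AMP, differed by -1.19 without overlap (limma adjusted p = 0.713), and Adcy7, an adenylyl cyclase, by -1.95 with overlap (limma adjusted p = 0.749). These 4 genes were named for the smallest p of the list, which favours groups without overlap. Of all probe sets, 6.22% were higher and 4.91% lower in tumours without overlap.

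The list of junction and lymphatic growth partners had 9 of 10 means higher in tumours, where 57.3% of all genes were, a median of 0.73, and 0 past the adjusted threshold. The 4 with an unadjusted p under 0.05 were Cldn5, a tight junction protein (2.17), Cdh5, the adherens junction protein VE-cadherin (2.10), Flt4, the receptor for VEGF-C (1.77), and Kdr, another VEGF receptor (1.18), which was below background on all 3 healthy-skin arrays. These 4 are also endothelial or LEC markers, so they carry the same difference between the captures as those lists. Gja1, the connexin that adrenomedullin is known to bring to lymphatic junctions, differed by 0.34 (limma adjusted p = 0.968), and Tjp1, the junction scaffold ZO-1, by 0.99 (limma adjusted p = 0.868).

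**Figure D5:**
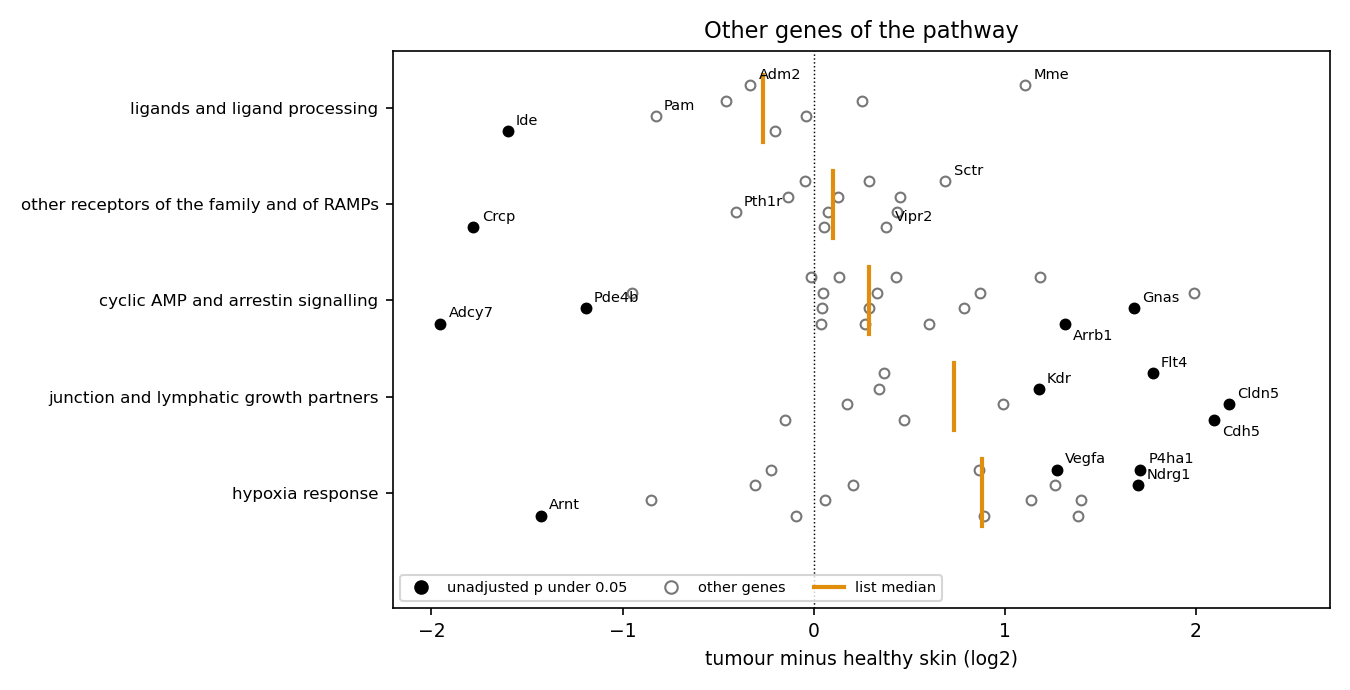
Log2 difference between tumour and healthy-skin samples (horizontal axis) for other genes of the pathway, 1 point per gene in 5 lists, filled where the unadjusted limma p was under 0.05, with an orange bar for the list median and names for the 4 genes of smallest p in each list. None of these genes passed an adjusted p of 0.05.

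The hypoxia list was examined because Adm is one of its classical targets. Of its 16 genes, 11 had higher and 5 lower means in tumours (57.3% of all genes were higher), with a median of 0.88 and 0 past the adjusted threshold. At an unadjusted p under 0.05 there were 3 higher and 1 lower, against 7.50% of all genes in either direction: P4ha1, a collagen prolyl hydroxylase (1.71), the stress gene Ndrg1 (1.70), Vegfa (1.27) and Arnt, the partner of the hypoxia-inducible factors (-1.43). The mean of the list was 5.61, 6.04 and 6.22 in healthy skin and 6.28, 6.05 and 7.23 in tumours. In 1447839_x_at, Adm shared the lowest array, healthy-skin replicate 1, and the highest, tumour replicate 3, with the list. Tumour replicate 1, second highest for the list, was second lowest for this probe set at 11.16. Probe set 1416077_at was lowest in tumour replicate 2 and highest in healthy-skin replicate 3. A link between Adm and the list was not tested. The list median was 0.096 without tumour replicate 3 and 0.21 with the mean of all probe sets of each gene.

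The genes whose signal followed each member most closely over the 6 arrays were sought among 11623 genes (11624 for Ramp3) above background on at least 3 arrays, as a description without a test. For Adm by its brightest probe set, the second and the third closest were Med14 (Pearson correlation 0.99) and Jade1 (0.98). For Calcrl they were Ankrd6 (0.999), Gps2 (0.98) and Ifnar2 (0.97), and for Ramp2 Psmd4, Ndfip2 and Ube2e1, which act in ubiquitin and proteasome pathways (0.99, 0.99 and 0.98). For Ackr3 they were Msi2 (0.98), Smad2, a transducer of TGF-beta signals (0.98), and Bnip2 (0.98). Ramp1 was followed by Slc25a15, 1700017L05Rik and Alg2 (0.99, 0.98 and 0.98), and Ramp3 by Synm, 4921507G05Rik and Plk2 (0.99, 0.98 and 0.98), but both lay near background. Between 0.241% (Calcrl) and 1.17% (Ramp2) of the genes searched had a correlation above 0.9 with the member, and the closest were picked from all of them over only 6 arrays. None of the members was among the 3 closest genes of another. Ramp3, above background on 1 array only, was not among the genes searched and so could not appear there.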

How the data were processed

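Captured RNA was amplified in 1 round and hybridised to 6 arrays, per the labels' protocols. The deposited table holds an intensity for each of 45101 probe sets, and the submitters' processing notes name RMA, with no software, version or filter given in the sources used here. Values ran from 1.45 to 33063, so they were taken as linear. RMA brings arrays to a common scale, so a difference in total RNA is not seen. The deposited values were still not fully equal between arrays, with linear medians from 9.49 to 10.93.

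The log2 of each deposited value was used with no pseudocount, 64 control probe sets were left out, and all other probe sets were tested by limma (version 3.58.1, under R 4.3.3), using lmFit and then eBayes, with two-sided p-values adjusted by Benjamini-Hochberg over 45037 and no block. The same code was checked on simulated data. Intervals are limma's moderated 95% intervals. Ratios to marker lists used exact permutation tests.

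In the platform annotation, 34945 tested probe sets have 1 gene symbol, 932 several and 9160 none. Entrez identifiers placed all 11 member probe sets in the RefSeq gene table. No coordinates are given, since no build is named. A gene outside the members is represented by its probe set with the highest mean. All probe sets of the members were named, and of each pathway list the 4 genes with the smallest p, and for each member the 3 genes with the highest correlation, of which 1 is not reported here. The other genes named (Cxcl12, Gja1, Tjp1 and the markers Lyve1, Itgam, Adipoq, Cidec, Tyr and Mlana) were chosen after their values were seen. The members and lists were chosen with earlier results of these data known. Of the list genes, 11 had no probe set of their own and were not analysed here.

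Alternatives were quantile normalization, median centring, leaving out dim probe sets, a pseudocount, the replicate number as a block, trend and robust eBayes, array weights, the mean over a gene's probe sets, and each array left out.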

Additional observations from a re-analysis of the deposited data

How the results depend on the processing

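No member probe set passed a limma adjusted p of 0.05 under any of the 14 alternatives. Of 150 member differences computed under them, 143 kept their direction, and 8 of 11 probe sets kept it throughout. Ramp1 probe set 1431413_at turned to -0.037 with quantile normalization, -0.033 with median centring, -0.0855 with array weights, and ranged from -0.29 to 0.20 with 1 array left out. Adm 1416077_at ranged from -0.76 to 0.074 and Calcrl 1418489_a_at from -0.24 to 1.94.

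Over all probe sets, 2 were called in the fit as reported, 21 with the filter on dim ones, 22 with array weights, 1 with eBayes trend, 0 with median centring, log2(value + 16) or the replicate block, and 0 to 23 with 1 array left out (23 without tumour replicate 2). Deviations of same-numbered samples had correlations of 0.04, 0.10 and -0.01, and those of the other pairs ran from -0.15 to 0.12. The labels name no animal or day behind a replicate number, and these correlations cannot show whether there was one.

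Relative to pan-endothelial markers Adm had 0.37 with log2(value + 16) and -0.79 with the mean of all probe sets. With 1 array left out it had -1.06 to 0.60, and Ackr3 -0.66 to 0.60. Relative to LEC markers Adm had -0.37 with the mean of all probe sets and -0.45 to 0.62 with 1 array left out, Ackr3 -0.14 with log2(value + 16) and -0.25 to 0.62, and Ramp3 -0.76 to 0.31. Ramp1 minus Ramp2 ranged from -0.44 to 0.25. List medians ranged from 0.093 to 0.42 (cyclic AMP), 0.44 to 1.01 (junctions) and 0.096 to 1.21 (hypoxia, 0.21 with the mean of all probe sets). Signal near background limits Ramp1 and Ramp3.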
